A study of Mus musculus with 11 samples.

Results

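The genes described here are the neurotrophins and receptors Bdnf, Ntf3, Ntrk2, Ntrk3, Ngfr and Sort1, chosen by gene symbol from a count table of the mouse hippocampus. All 6 symbols were found among the 30681 genes of the table, and all 6 passed the filter on low counts that left 16587 genes. One group was labelled as a conditional knockout (cKO) of Dclk3, a doublecortin-like kinase, and held 6 libraries. The other group was labelled wild type (WT) and held 5 libraries. All mice were 6 months old, and each library came from 1 hippocampus by sequencing of polyadenylated RNA. The sources used here name neither the strain, the recombinase line that drives the deletion, the cells it acts in nor the deleted part of the gene. They do not say that each library is another animal, so the spread behind every p-value is that of these samples and may be technical.

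Neurotrophins are secreted growth factors that neurons use for survival, growth and the adjustment of synapses. BDNF, the product of Bdnf, binds the receptor kinase TrkB (Ntrk2), and neurotrophin-3 (Ntf3) binds mainly TrkC (Ntrk3). Every neurotrophin also binds the receptor p75 (Ngfr), and the uncleaved precursors bind p75 together with sortilin (Sort1), which also sorts BDNF within the cell. In the hippocampus BDNF is made by excitatory neurons in response to activity, neurotrophin-3 is made mainly in the dentate gyrus, and astrocytes carry a form of TrkB that lacks the kinase.

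The total count per library was 24001828 to 35674490. Dclk3 had 20.1 ± 3.44 CPM (reads per 1000000 of the scaled library total) in the labelled cKO libraries and 22.4 ± 3.31 CPM in WT (SD over 6 and 5 libraries). The log2 fold change, -0.15 ± 0.12 (SE), did not pass the test (edgeR, adjusted p = 0.727), and in the 8 male libraries it was -0.060. The gene's count therefore does not check the label, and directions below are those of the labels. Excitatory neuron markers summed to 9343 to 10450 CPM in the labelled cKO libraries and 9212 to 10460 CPM in WT, so the labelled tissue's main neurons were present in every library. By Xist and Y-linked transcripts all 6 labelled cKO libraries and WT replicates 2 and 5 were male, and WT replicates 1, 3 and 4 were female. Sex is thus partly confounded with genotype, and log2 fold changes with a sex term or in the 8 male libraries are given for the 6 genes and, for other named genes and lists, where either moves them by over 1.5 times.

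Bdnf has several starts of transcription, and the table gives 1 count for all of them. RefSeq windows of 250 bases before each start (GRCm38.p6, the assembly behind mm10) were found for 4 of the 6 genes, 7 of them for Bdnf, 2 for Ntf3 and 1 each for Ntrk2 and Ngfr. Both strands were searched for the cyclic AMP response element TGACGTCA, its variant TCACGTCA, the shorter element TGACG, the E-box CACGTG and the EGR motif GCGGGGGCG. The variant was chosen as an element of Bdnf itself. Its match in a window of Bdnf was thus set in advance, and its share of all windows is a description. Of the 11 windows, start 3 of Bdnf held TCACGTCA, with TGACG inside it on the opposite strand (CGTCA as printed), and start 1 of Ntf3 held CACGTG. Of 32851 windows of the same length, 0.35% held TCACGTCA, 17.8% TGACG, 6.02% CACGTG, 1.55% TGACGTCA and 2.57% the EGR motif. The 2 windows with a match are shown because they belong to the 2 ligands whose ratio is tested below. The first is chr2:109692186-109692435 on the plus strand and the second chr6:126166745-126166994 on the minus strand, with the matched letters in capitals.
Bdnf, start 3: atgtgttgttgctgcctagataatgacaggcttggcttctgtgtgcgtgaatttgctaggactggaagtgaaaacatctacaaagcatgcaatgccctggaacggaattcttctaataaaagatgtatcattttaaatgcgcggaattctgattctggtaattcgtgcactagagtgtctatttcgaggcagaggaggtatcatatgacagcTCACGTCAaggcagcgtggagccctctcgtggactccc
Ntf3, start 1: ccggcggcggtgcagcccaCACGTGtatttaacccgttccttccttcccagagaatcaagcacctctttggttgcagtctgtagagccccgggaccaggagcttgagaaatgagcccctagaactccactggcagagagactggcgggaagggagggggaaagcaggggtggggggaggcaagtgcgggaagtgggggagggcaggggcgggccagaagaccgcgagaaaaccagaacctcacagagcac
A match describes these letters only. The counts do not separate the starts, so no value below belongs to a single promoter.

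The 6 genes spanned a wide range of levels. Per kilobase of merged exons, Sort1 averaged 85.8 ± 4.37 CPM per kb in the labelled cKO libraries and 86.0 ± 3.55 CPM per kb in WT (SD, n = 6 and 5). Ntrk2 followed with 40.6 ± 1.15 and 37.5 ± 1.62 CPM per kb in the labelled cKO libraries and in WT (SD). Sortilin and TrkB were thus the most abundant of these transcripts per length, and their ranges did not overlap. Bdnf averaged 6.47 ± 1.18 CPM per kb in the labelled cKO libraries and 5.77 ± 0.997 CPM per kb in WT (SD). Ntrk3 was at 5.60 ± 0.612 CPM per kb in the labelled cKO libraries and 5.75 ± 0.297 CPM per kb in WT (SD). The ranges of Bdnf and Ntrk3 overlapped in both groups, so their order is not set. Ntf3 averaged 3.12 ± 0.593 CPM per kb in the labelled cKO libraries and 4.29 ± 0.970 CPM per kb in WT (SD), where its range overlapped that of Ntrk3. Ngfr was lowest, with 0.386 ± 0.121 CPM per kb in the labelled cKO libraries and 0.586 ± 0.171 CPM per kb in WT (SD), below Ntf3 in all 11 libraries. Merged exons of Ntrk2 and Ntrk3 hold long alternative ends. With the longest transcript as the length, Ntrk2 was at 89.6 CPM per kb in the labelled cKO libraries and 82.8 CPM per kb in WT, and its range overlapped that of Sort1 in the labelled cKO libraries.

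**Figure D1:**
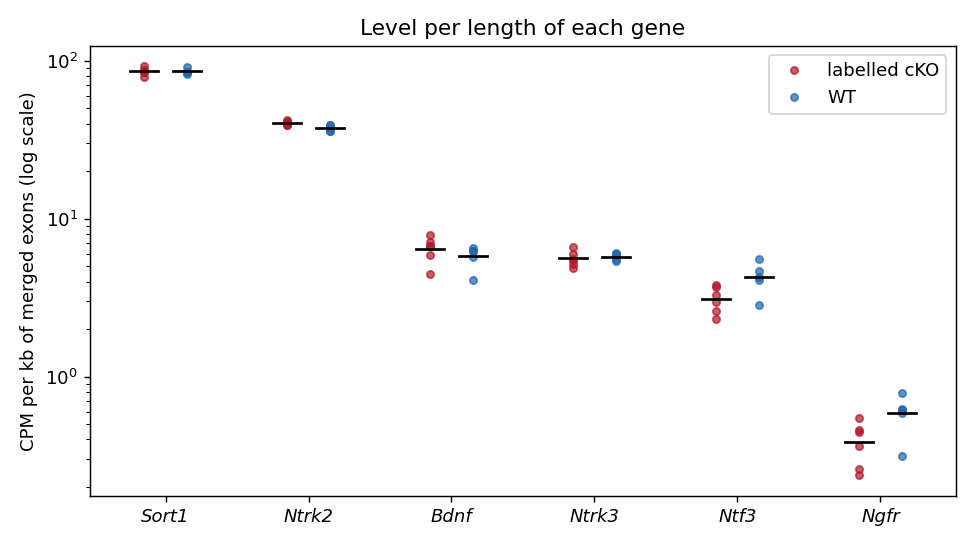
Level of each gene in CPM per kb of merged exons on a log axis, with 1 point per library, the labelled cKO libraries in red left of WT in blue, and a bar at each mean. Sort1 and Ntrk2 lie above the other 4 genes, and Ngfr lies below all of them in both groups.

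The comparison of the genotypes asked whether any of these genes differed. None of the 6 passed the test over all genes, where edgeR called 0 of 16587 (0%). DESeq2 called 62 genes (0.374%) over the whole table and 0 of the 6, and limma-voom called 0. Without adjustment, edgeR gave a p under 0.05 for 1524 genes (9.19%) and DESeq2 for 1603 (9.66%). Under both tools these included Ntf3 and Ngfr, with lower means in the labelled cKO libraries (5.35% of all genes by edgeR), and Ntrk2, with a higher mean there (3.84%). In none of the 6 did the groups lie apart without overlap, as they did in 0.916% of all genes tested (0.512% lower and 0.404% higher in the labelled cKO libraries). The genes were chosen with earlier results of these data known, so these counts are descriptions.

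**Figure D2:**
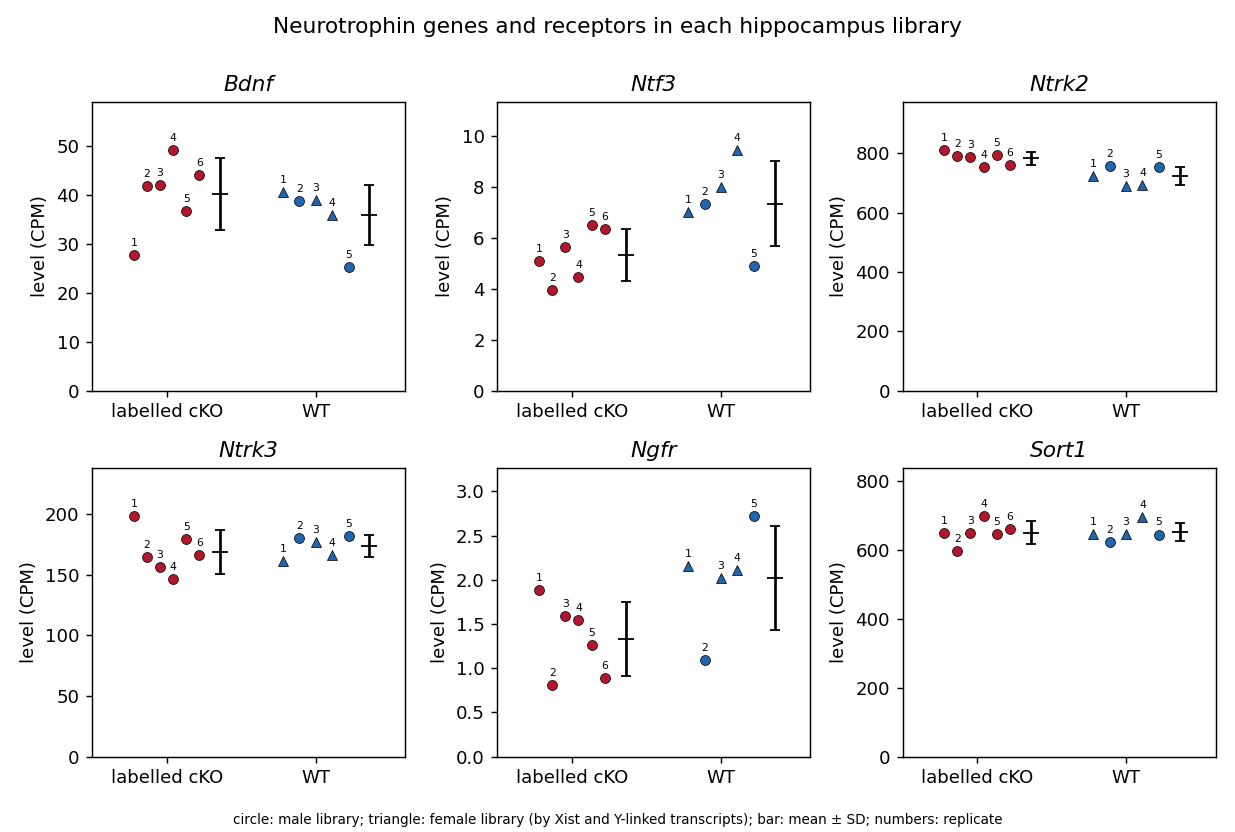
Level in CPM of each gene in every library, the labelled cKO libraries in red left of WT in blue, numbered by replicate, with the mean ± SD. Circles are male and triangles female libraries by Xist and Y-linked transcripts. Ntf3 is between 3.97 and 6.50 CPM in the labelled cKO libraries and above 7 CPM in 4 of the 5 WT libraries.

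Among the ligands, Ntf3 showed the lower level in the labelled cKO libraries. Ntf3 (ENSMUSG00000049107, chromosome 6, 126101412 to 126166910, minus strand, mm10) ran from 3.97 CPM in replicate 2 labelled cKO to 6.50 CPM in replicate 5, with a median of 5.37 CPM. In WT replicates 1 to 5 it was 7.01, 7.35, 8.01, 9.47 and 4.90 CPM. All 6 labelled cKO libraries lay below WT replicates 1 to 4, and WT replicate 5 lay among them. Its log2 fold change of -0.47 ± 0.16 (SE) had a 95% interval of -0.80 to -0.14 (edgeR, unadjusted p = 0.00895, adjusted p = 0.422). The counts were 141 to 189 and 151 to 318 reads per library in the labelled cKO libraries and in WT, so counting alone gives a coefficient of variation (CV) of 7.86% and 6.50%, against observed CVs of 19.0% and 22.6%. With a sex term the log2 fold change of Ntf3 was -0.20 ± 0.19 (SE; edgeR, adjusted p = 0.845), and in the 8 male libraries it was also -0.20. The 2 male WT libraries were at 7.35 and 4.90 CPM, far apart for this gene.

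Dentate granule cells are a main source of neurotrophin-3, and their markers were read beside it. Of 6 markers 5 had a negative and 1 a positive log2 fold change, with a median of -0.19, against a median of -7.9e-05 over all genes tested. The unadjusted p was under 0.05 for Il1rap (-0.22 ± 0.077) and Tdo2 (-0.56 ± 0.24), and none passed over all genes (log2 ± SE; edgeR, lowest adjusted p = 0.435). Of all genes tested, 5.35% were lower at that unadjusted threshold. The summed markers were 372 to 431 CPM in the labelled cKO libraries and 373 to 497 CPM in WT, and no marker was at 0. WT replicates 3 and 4, with the highest Ntf3, also had the highest sums, 456 and 497 CPM, and WT replicate 5, with the lowest Ntf3 of WT, had the lowest, 373 CPM. Replicates 5 and 6 labelled cKO, with the highest Ntf3 of their group, had its highest sums, 426 and 431 CPM. Other libraries did not follow this order: replicate 3 labelled cKO, with 5.66 CPM of Ntf3, had the lowest sum of all, 372 CPM, replicate 2 labelled cKO, with the lowest Ntf3, had 396 CPM, and WT replicate 1 had 7.01 CPM of Ntf3 beside a sum of 380.5 CPM. The part of these cells in the Ntf3 values was not tested. In whole tissue, fewer cells of a type and less RNA per cell cannot be told apart.

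Bdnf had the higher mean in the labelled cKO libraries, within its spread. Bdnf (ENSMUSG00000048482, chromosome 2, 109674700 to 109727007, plus strand, mm10) ran from 27.7 CPM in replicate 1 labelled cKO to 49.2 CPM in replicate 4, with a median of 41.9 CPM. WT replicates 1 to 5 had 40.6, 38.8, 38.9, 35.8 and 25.2 CPM. Thus 4 of the 6 labelled cKO libraries lay above every WT library, and 1 library of each group, replicate 1 labelled cKO and WT replicate 5, stood low. Its log2 fold change of 0.17 ± 0.15 (SE) had a 95% interval of -0.17 to 0.50 (edgeR, adjusted p = 0.786). With a sex term it was 0.33 ± 0.20 (SE; adjusted p = 0.771), in the 8 male libraries it was also 0.33, and without WT replicate 5 it was 0.061 (adjusted p = 0.959). Bdnf had 778 to 1690 reads per library, and its CV of 18.3% in the labelled cKO libraries and 17.3% in WT was well above the 2.82% and 2.95% that counting gives. The annotated gene Gm45346 covers 896 exon bases of Bdnf on the opposite strand. It had 4 to 10 reads in the labelled cKO libraries and 2 to 5 reads in WT, few beside those of Bdnf, but the sources used here do not say whether counting used the strand.

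The balance of the ligands was compared as a ratio of counts within a library, which does not depend on scaling between libraries. This ratio and the 2 further ones below were chosen with earlier results of these data known. The Bdnf to Ntf3 ratio was 5.45 in replicate 1 labelled cKO, 5.63 in replicate 5, 6.93 in replicate 6, 7.40 in replicate 3, 10.5 in replicate 2 and 11 in replicate 4. In WT replicates 1 to 5 it was 5.80, 5.28, 4.86, 3.78 and 5.15. Replicates 2, 3, 4 and 6 labelled cKO lay above every WT library. The mean log2 ratio was 2.91 ± 0.433 in the labelled cKO libraries and 2.30 ± 0.232 in WT (SD, n = 6 and 5), a difference of 0.61, or 1.53-fold (2-sided exact permutation p = 0.0173; 0.0476 adjusted over the 3 ratios tested). With 1 library left out the exact permutation p, not adjusted over the 3 ratios, was 0.0159 to 0.0571. It was above 0.05 only without WT replicate 4 (difference 0.52, exact permutation p = 0.0571). The adjustment over the 3 ratios was not repeated there. In the main test the adjusted p of 0.0476 was set by the other 2 ratios, each with an exact permutation p of 0.0476. Both of those rose above 0.05 in 9 of the 11 cases with 1 library left out. The adjusted call for Bdnf to Ntf3 is therefore not shown to hold when a library is left out. Among the 8 male libraries the difference was 0.53 (exact permutation p = 0.0714, where 0.036 is the smallest p that 28 splits give).

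**Figure D3:**
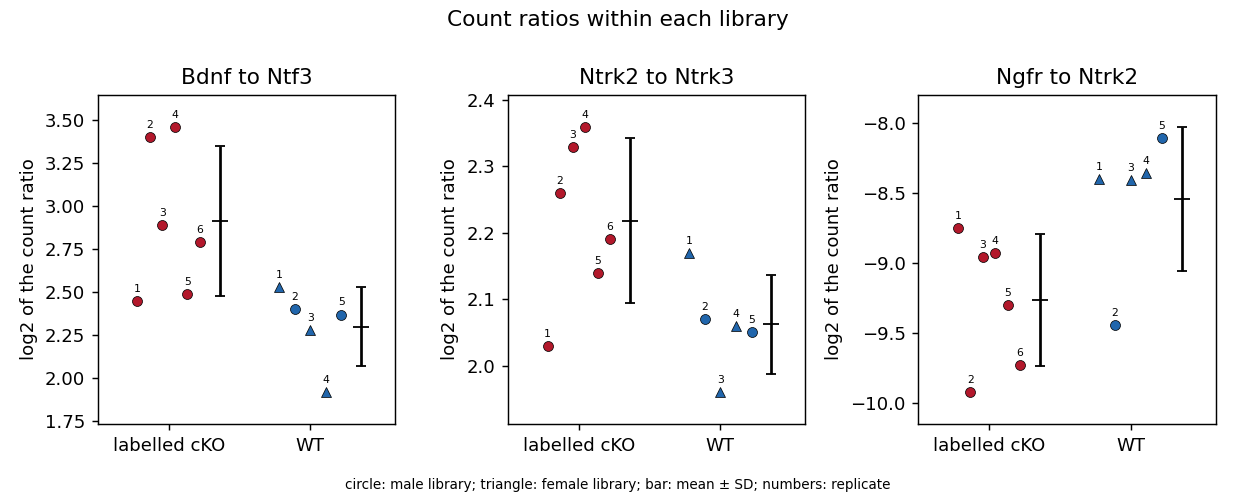
Log2 ratio of the counts of 2 genes within each library, for Bdnf to Ntf3, Ntrk2 to Ntrk3 and Ngfr to Ntrk2, with the labelled cKO libraries in red left of WT in blue, numbered by replicate, and the mean ± SD. Circles are male and triangles female libraries. The groups overlap in all 3 panels, and WT replicate 2 stands below the other WT libraries in the last.

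Of the Trk receptors, Ntrk2 had the higher mean in the labelled cKO libraries, by a small margin. Ntrk2 (ENSMUSG00000055254, chromosome 13, 58806569 to 59133970, plus strand, mm10) ran from 753.2 CPM in replicate 4 labelled cKO to 812.5 CPM in replicate 1, with a median of 789 CPM. WT replicates 1 to 5 had 725, 757, 691, 694 and 753.1 CPM. Of the labelled cKO libraries 5 lay above every WT library, and the sixth lay below WT replicate 2 only. Its log2 fold change of 0.11 ± 0.043 (SE) had a 95% interval of 0.022 to 0.21 (edgeR, unadjusted p = 0.0184, adjusted p = 0.467). The gene varied little, with a CV of 2.84% in the labelled cKO libraries and 4.33% in WT. The 2 male WT libraries were its highest in WT, and with a sex term the log2 fold change was 0.053 ± 0.057 (SE; adjusted p = 0.862). Among the 8 male libraries it was 0.055. The table gives 1 count for the gene, so the full kinase receptor and the short form of astrocytes are not separated.

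Astrocyte markers were read beside Ntrk2, since astrocytes carry its short form. All 8 had a positive log2 fold change, with a median of 0.20, and none passed over all genes (edgeR, lowest adjusted p = 0.352). The unadjusted p was under 0.05 for Mlc1, which encodes an astrocyte membrane protein (0.16 ± 0.045), Gja1, which encodes connexin 43 (0.21 ± 0.061), the glutamate transporter Slc1a2 (0.22 ± 0.066) and the water channel Aqp4 (0.26 ± 0.092; log2 ± SE). Among all genes tested, 3.84% were higher at that unadjusted threshold. The 8 markers summed to 8421 to 10480 CPM in the labelled cKO libraries and 6809 to 8031 CPM in WT, and no marker was at 0. All 6 labelled cKO sums lay above every WT sum, but the groups overlapped for each of the 8 markers alone. Slc1a2 was the largest part of the sum, with means of 5210 CPM in the labelled cKO libraries and 4480 CPM in WT. Gfap had the largest fold difference and a wide spread, 1610 ± 1060 and 799 ± 271 CPM (SD), with a log2 fold change of 1.01 ± 0.46 (SE). Within the labelled cKO libraries, replicates 2 and 6 had the highest sums, while replicate 1 had the highest Ntrk2. The part of astrocytes in the Ntrk2 values was not tested. Restricted to the 8 male libraries, all 8 markers had a positive log2 fold change, with a median of 0.18.

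**Figure D4:**
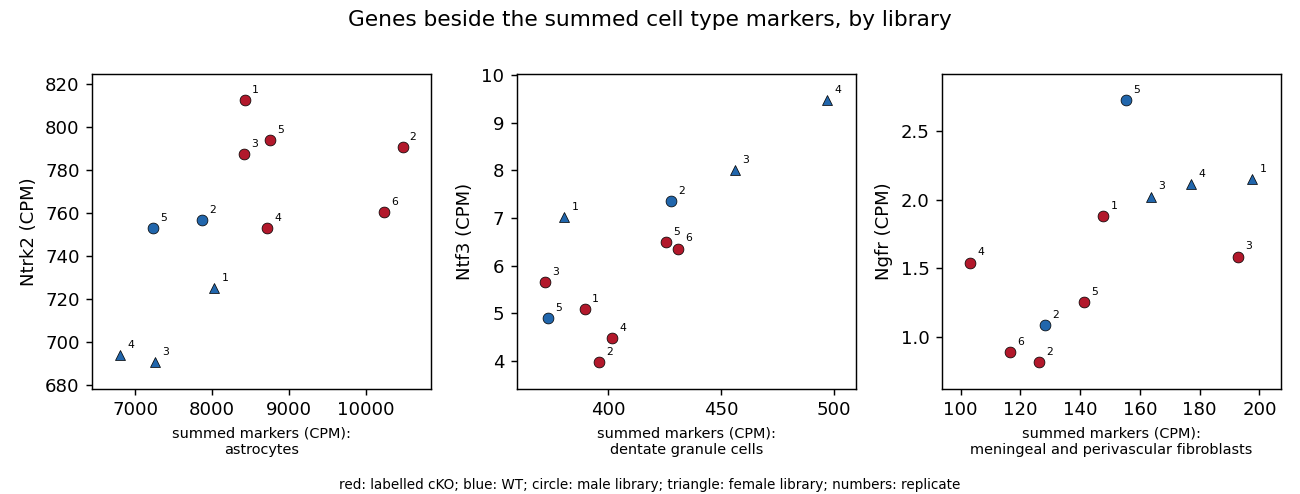
Level in CPM of Ntrk2, Ntf3 and Ngfr against the summed CPM of markers of astrocytes, dentate granule cells and meningeal and perivascular fibroblasts, 1 point per library, numbered by replicate, with the labelled cKO libraries in red and WT in blue, and circles for male and triangles for female libraries. All 6 labelled cKO libraries lie to the right of WT for the astrocyte markers and overlap with WT for the other 2 lists.

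Ntrk3 stayed within its spread. Ntrk3 (ENSMUSG00000059146, chromosome 7, 78175959 to 78738012, minus strand, mm10) ran from 146.5 CPM in replicate 4 labelled cKO to 199 CPM in replicate 1, with a median of 166 CPM. In WT replicates 1 to 5 it was 162, 181, 177, 167 and 182 CPM. The WT values lay inside the range of the labelled cKO libraries. Its log2 fold change of -0.040 ± 0.066 (SE) had a 95% interval of -0.18 to 0.099 (edgeR, adjusted p = 0.896). Within their group, replicates 1 and 4 labelled cKO stood at opposite ends for both Bdnf and Ntrk3, with replicate 1 lowest in Bdnf and highest in Ntrk3. With a sex term the log2 fold change of Ntrk3 was -0.10 ± 0.088 (SE; adjusted p = 0.827), and in the 8 male libraries it was also -0.10.

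The Ntrk2 to Ntrk3 ratio was 4.09, 4.79, 5.04, 5.14, 4.41 and 4.57 in replicates 1 to 6 labelled cKO. WT replicates 1 to 5 had 4.49, 4.19, 3.89, 4.17 and 4.15. The mean log2 ratio was 2.22 ± 0.125 in the labelled cKO libraries and 2.06 ± 0.0723 in WT (SD, n = 6 and 5), a difference of 0.16, or 1.12-fold (2-sided exact permutation p = 0.0476; 0.0476 adjusted over the 3 ratios). That call ended in 9 of the 11 cases where 1 library was left out (unadjusted exact permutation p from 0.0556 to 0.0952). These were replicates 2 to 6 labelled cKO and WT replicates 2 to 5. Among the 8 male libraries the difference was also 0.16 (exact permutation p = 0.179).

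Ngfr, which encodes p75, was the rarest of the 6 transcripts and had the largest fold difference. Ngfr (ENSMUSG00000000120, chromosome 11, 95568818 to 95587735, minus strand, mm10) ran from 0.816 CPM in replicate 2 labelled cKO to 1.88 CPM in replicate 1, with a median of 1.40 CPM. In WT replicates 1 to 5 it was 2.15, 1.09, 2.02, 2.12 and 2.72 CPM. Every library labelled cKO lay below WT replicates 1, 3, 4 and 5, and WT replicate 2 lay among them. Its log2 fold change of -0.60 ± 0.24 (SE) had a 95% interval of -1.1 to -0.10 (edgeR, unadjusted p = 0.0209, adjusted p = 0.476). It rests on 25 to 57 reads per library in the labelled cKO libraries and 32 to 84 in WT, so counting alone gives a CV of 15.6% and 12.4%, against observed CVs of 31.5% and 29.2%. With a sex term the log2 fold change was -0.52 ± 0.32 (SE; adjusted p = 0.767).

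In adult brain p75 is known from cholinergic neurons of the basal forebrain, whose cell bodies lie outside the hippocampus. Of 5 cholinergic markers only Slc5a7, the choline transporter, passed the filter on low counts, and the 5 summed to 0.536 to 1.12 CPM in the labelled cKO libraries and 0.578 to 1.10 CPM in WT. Those neurons' markers were therefore near 0 in both groups. Meningeal and perivascular fibroblast markers had a negative log2 fold change in 7 of 9 and a positive one in 2, with a median of -0.56. Their sum was 103 to 193 CPM in the labelled cKO libraries and 128 to 198 CPM in WT, with 3 labelled cKO libraries below every WT library and no marker at 0. The unadjusted p was under 0.05 for 5, all lower, among them the sulfate transporter Slc13a4 (-0.76 ± 0.16) and the growth factor Igf2 (-0.56 ± 0.12), and none passed over all genes (log2 ± SE; edgeR, lowest adjusted p = 0.26). Over all genes tested, 5.35% were lower at that unadjusted threshold. WT replicate 2, with the lowest Ngfr of WT, also had the lowest WT sum, 128 CPM. Other libraries did not follow this order: WT replicate 5, with the highest Ngfr, had the next lowest WT sum, 155 CPM, and replicate 3 labelled cKO had 1.59 CPM of Ngfr beside 193 CPM. Of the fibroblast markers Dcn had the highest level, so the sums lean on it. It averaged 66.0 ± 30.4 CPM in the labelled cKO libraries and 64.0 ± 12.3 CPM in WT (SD). The log2 fold change of Dcn was 0.043 ± 0.30 (SE), and 0.13 in the 8 male libraries. The part of fibroblasts in the Ngfr values was not tested. In the 8 male libraries the median of the fibroblast markers was -0.11, with 5 of 9 negative, and the log2 fold changes were -0.40 for Slc13a4, -0.30 for Igf2 and -0.52 for Ngfr.

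The Ngfr to Ntrk2 ratio compared p75 with TrkB. It was 0.00103 to 0.00232 in the labelled cKO libraries, and 0.00297, 0.00144, 0.00293, 0.00305 and 0.00362 in WT replicates 1 to 5. The mean log2 ratio was -9.27 ± 0.473 in the labelled cKO libraries and -8.54 ± 0.516 in WT (SD, n = 6 and 5), a difference of -0.72 (2-sided exact permutation p = 0.0476; 0.0476 adjusted over the 3 ratios). All 6 labelled cKO libraries lay below 4 of the 5 WT libraries, and WT replicate 2 lay among them. The call ended in 9 of the 11 cases where 1 library was left out (unadjusted exact permutation p from 0.0556 to 0.0952). These were replicates 2 to 6 labelled cKO and WT replicates 1, 3, 4 and 5. In the 8 male libraries the difference was -0.49 (exact permutation p = 0.357).

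Sort1 was nearly equal between the groups. Sort1 (ENSMUSG00000068747, chromosome 3, 108284082 to 108361511, plus strand, mm10) ran from 595 CPM in replicate 2 labelled cKO to 698.5 CPM in replicate 4, with a median of 648 CPM. WT replicates 1 to 5 had 646, 623.5, 644, 696 and 644 CPM. Its log2 fold change of -0.0026 ± 0.047 (SE) had a 95% interval of -0.10 to 0.097 (edgeR, adjusted p = 0.993). Its sign turned under 11 of 21 alternatives, among them the sex term (0.036) and the 8 male libraries alone (0.038). The annotated gene Gm12523 covers 338 exon bases of Sort1 on the opposite strand and had at most 5 reads in a library.

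**Figure D5:**
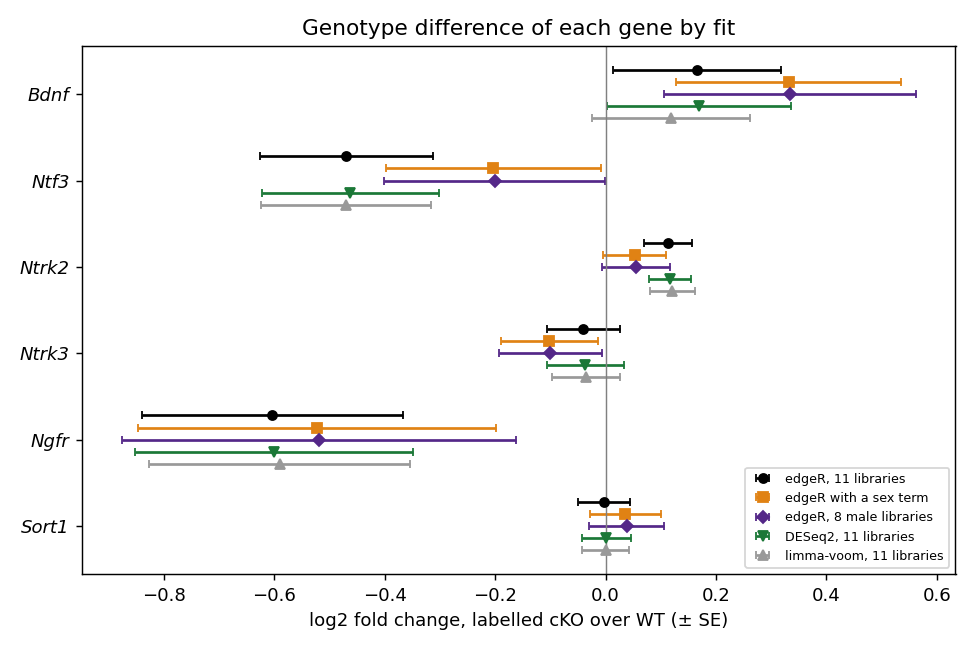
Log2 fold change of each gene, labelled cKO over WT, with its SE, under edgeR on the 11 libraries, edgeR with a sex term, edgeR on the 8 male libraries, DESeq2 and limma-voom. Ntf3 is near -0.47 in the 3 fits of 11 libraries with no sex term and near -0.20 in the other 2, and Ngfr lies between -0.60 and -0.52 in all 5.

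Ntf5, the gene of neurotrophin-4, had 3 to 18 reads in the labelled cKO libraries and 4 to 11 reads in WT, and did not pass the filter on low counts. The sorting receptors related to sortilin had log2 fold changes of 0.14 ± 0.079 (Sorcs1), 0.12 ± 0.067 (Sorcs3), 0.014 ± 0.047 (Sorl1) and -0.0096 ± 0.044 (Sorcs2; SE), and none had an unadjusted p under 0.05. Restricted to the 8 male libraries, Sorcs1 was at 0.026, Sorl1 at -0.0011 and Sorcs2 at -0.00028.

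Around the family, 7 lists held 118 genes of neurotrophin processing, signalling and control, of which 113 were tested. None passed over all genes by edgeR. Without adjustment 9 had a p under 0.05 with a higher and 15 with a lower mean in the labelled cKO libraries, 21.2% of those tested, against 9.19% of all genes (3.84% higher and 5.35% lower). Part of the 21.2% comes from activity-regulated genes that were put on the lists with their earlier results known.

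Genes that cleave the precursors or load and release dense-core vesicles had a median log2 fold change of 0.092, with 13 of 16 tested genes positive, 2 higher and 1 lower at an unadjusted p under 0.05. Cadps2, a priming factor for the release of these vesicles that carry BDNF, was at 0.19 ± 0.067. Cpe, carboxypeptidase E, which also sorts pro-BDNF, was at 0.12 ± 0.050 and the convertase Pcsk7 at -0.19 ± 0.065 (log2 ± SE). The convertase Furin itself had 39.2 ± 1.66 CPM in the labelled cKO libraries and 39.9 ± 2.08 CPM in WT (SD). Scg2, a granin of the vesicles, was at 0.19 ± 0.10 (log2 ± SE) with an unadjusted p of 0.0969 by edgeR, and at 0.36 in the 8 male libraries.

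Of 36 Trk adaptors and effectors 4 were higher and 4 lower at an unadjusted p under 0.05, with a median of 0.025 that was -0.0039 with total counts as the only scaling and 0.0032 in the 8 male libraries. Pik3r1, the regulatory subunit of PI3-kinase, had the smallest p (0.22 ± 0.054, log2 ± SE; edgeR, unadjusted p = 0.000783, adjusted p = 0.346). Its 6 labelled cKO libraries, with a mean of 114 ± 6.31 CPM, lay above every WT library, with a mean of 97.5 ± 7.18 CPM (SD). The same held for 0.404% of all genes tested. The catalytic subunit Pik3ca was at 0.12 ± 0.045, the small GTPase Nras at 0.12 ± 0.046 and the adaptor Shc1 at -0.19 ± 0.077 (log2 ± SE). With a sex term Pik3ca was at 0.075. Genes of p75 signalling gave 1 higher and 1 lower among 20 tested (unadjusted p under 0.05), with a median of -0.016 that was 0.036 in the 8 male libraries. The higher one was Adam10, a sheddase of cell surface proteins (0.17 ± 0.047), and the lower one Traf4 (-0.16 ± 0.073, log2 ± SE). The next 2 by p were Ripk2, a kinase (-0.23 ± 0.11), and Omg, a myelin ligand of the Nogo receptor (0.070 ± 0.041; log2 ± SE), the last at 0.12 in the 8 male libraries.

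Regulators of Bdnf transcription gave 2 higher and 3 lower among 17 tested (unadjusted p under 0.05), with a median of 0.0049 that was -0.023 with total counts as the only scaling and -0.046 in the 8 male libraries. Npas4, an activity-induced transcription factor that acts on Bdnf, averaged 8.17 ± 3.57 CPM in the labelled cKO libraries and 15.5 ± 1.5 CPM in WT (SD over 6 and 5 libraries), and its groups did not overlap (log2 fold change -0.92 ± 0.29, SE; edgeR, adjusted p = 0.423). Groups lay apart in that direction in 0.512% of all genes tested. The repressor Rest was at -0.31 ± 0.11, the CREB coactivator Crtc2 at -0.18 ± 0.064 and Arnt2, a partner of Npas4, at 0.13 ± 0.054 (log2 ± SE). Genes induced downstream of ERK, the kinase that Trk receptors drive, gave 0 higher and 6 lower among 19 tested (unadjusted p under 0.05), with a median of -0.050 that was -0.088 in the 8 male libraries. Their summed level was 940 to 976 CPM in the labelled cKO libraries and 893 to 1220 CPM in WT. The smallest p belonged to Fos (-0.91 ± 0.18), Egr1 (-0.51 ± 0.12), Egr2 (-1.3 ± 0.38) and Arc (-0.81 ± 0.24; log2 ± SE). Spry1 (-0.29 ± 0.12) and Spry4 (-0.185 ± 0.087) were also lower at an unadjusted p under 0.05 (log2 ± SE, edgeR). Vgf, a peptide precursor induced by BDNF, was at -0.028 ± 0.065 and Dusp6, an ERK phosphatase, at -0.13 ± 0.086 (log2 ± SE). Of the 19 genes 13 had a negative and 6 a positive log2 fold change. Among the 8 male libraries Npas4 was at -1.0, Crtc2 at -0.27, Arnt2 at 0.063, Fos at -0.67, Egr1 at -0.39, Egr2 at -0.86, Arc at -0.60 and Vgf at -0.011.

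For each of the 6 genes, the genes that varied most like it were ranked by Pearson's r of log2 CPM over the 11 libraries after each group's mean was subtracted, among 14305 genes with a mean of at least 1 CPM. These are the highest of many values over few libraries and are descriptions only. The closest to Bdnf were Psmb1 (0.974), Hint2 (0.951) and Yipf1 (0.949), and those to Ntf3 were Fam104a (0.904), Efnb1 (0.897) and Set (0.894). Ntrk2 was followed by Tulp4 (0.981), Arid1a (0.942) and Apba1 (0.942), and Ntrk3 by Dzip3 (0.964), Arfgef3 (0.964) and 1700025G04Rik (0.961). The closest to Ngfr were Slc6a9 (0.949), Mars (0.940) and Ncam1 (0.936), and those to Sort1 were Cdh5 (0.940), Kdelr1 (0.926) and Ptov1 (0.924). None of these 18 genes passed the genotype test (edgeR, lowest adjusted p = 0.514).

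Of the other marker lists, microglial markers were positive in 6 of 6, with a median log2 fold change of 0.18 and sums of 504 to 678 CPM in the labelled cKO libraries and 493 to 541 CPM in WT. Median log2 fold changes were 0.056 for CA1 and -0.0067 for CA2 and CA3 pyramidal cells, 0.014 for GABAergic neurons, 0.018 for oligodendrocytes, -0.060 for their precursors and 0.012 for endothelial cells. With total counts as the only scaling, those of GABAergic neurons (-0.015), oligodendrocytes (-0.010) and endothelial cells (-0.016) turned negative. The medians were -0.11 for pericytes and smooth muscle, -0.073 for choroid plexus, -0.16 for thalamus and -0.059 for striatum. Restricted to the 8 male libraries, CA2 and CA3 pyramidal cells turned to 0.14 (6 of 7 positive) and pericytes and smooth muscle to 0.029 (4 of 7 positive). CA1 pyramidal cells were there at 0.0015, oligodendrocytes at 0.00091, endothelial cells at 0.12 and choroid plexus at -0.25 (5 of 5 negative). Choroid plexus markers summed to 245 CPM in replicate 5 labelled cKO and 76.8 to 153 CPM in the other 10 libraries. At an unadjusted p under 0.05 (edgeR, 11 libraries), 4 of 6 microglial markers were higher and 2 of 6 thalamic markers lower. Pericytes and smooth muscle gave 1 higher and 3 lower of 7, and striatum 1 of each of 6. CA1 gave 1 higher of 5, choroid plexus 1 lower of 5, and the remaining lists of this paragraph 0. Over all genes these shares were 3.84% higher and 5.35% lower. Thalamic sums of 4 labelled cKO libraries lay below every WT sum.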

How the data were processed

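Gene counts of 11 hippocampus libraries (6 labelled cKO, 5 WT) were used as the authors deposited them: raw whole numbers of reads per Ensembl gene ID, per the file headers. Per the submitters' processing notes, bcl2fastq 2.17.1.14 and the build mm10 were used. The aligner, counting tool, annotation and strand setting were not given in the sources used here. Libraries were made with strand marking, per the labels' protocols. Of 30681 genes 30566 matched a symbol. Coordinates and lengths are from GENCODE M21 (mm10), promoter windows from RefSeq (GRCm38.p6).

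Counts were filtered with filterByExpr (16587 genes left), scaled by TMM and tested with edgeR's quasi-likelihood F test of genotype (robust, 2-sided, Benjamini-Hochberg over all genes, threshold 0.05). CPM were computed here on TMM-scaled totals. The test was checked on simulated counts. It recovered 50% of 1.25-fold, 80% of 1.5-fold, 86% of 2-fold and 98% of 3-fold changes, with 7 false calls among 16275 unchanged genes. Differences of the size seen here can thus be missed. Standard errors come from the fold change and F statistic. R 4.3.3, edgeR 4.0.16, limma 3.58.1 and DESeq2 1.42.0 were used. Ratios of raw counts within a library were compared by exact permutation over 462 splits, with Benjamini-Hochberg adjustment over the 3 ratios. Replicate pairs differed by a chi-square per degree of freedom of at least 5.70, more than sampling noise.

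The 6 genes, the 3 ratios, the 7 pathway lists, the 16 marker lists and the sex alternatives were chosen with earlier results of these data known. Named were the 6 genes and Dclk3, up to 4 members of each pathway list with the smallest p, markers set beside a result, and the 3 genes most like each of the 6. Furin, Vgf, Dusp6, Spry1, Spry4, Gfap and Dcn were named after their values were seen. Intervals are at 95%. Alternatives were other scalings and filters, a replicate block, a sex term, the male libraries alone, DESeq2, limma-voom and each library left out. Counting CVs cover counting error only. Some members of the lists are not reported here.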

Additional observations from a re-analysis of the deposited data

Results flagged for a closer look

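The log2 ratio of Ngfr to Ntrk2 in WT replicate 2 was -9.44, against -8.41 to -8.11 in the other 4 WT libraries. Its distance from the nearest of them took 0.772 of the whole range of the WT libraries, above the critical value of 0.71 for 5 samples in Dixon's test. Of the 18 groups tested in this way it was the 1 that stood out, and chance gives about 1 in 20. Ngfr had 32 reads in that library and 69 to 84 reads in the other 4. Without it the difference between the groups was -0.95 (exact permutation p = 0.0143). That library was picked on these same ratios and was the WT library that lay among the labelled cKO values. The smaller p is therefore a description only.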

How the results depend on the processing

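None of the 6 genes passed edgeR's, DESeq2's or limma-voom's adjusted threshold under any of the 21 alternatives run for each (126 in all, lowest adjusted p = 0.157), and 5 of the 6 kept their sign in all of them. Sort1 turned to 0.0017 with DESeq2 size factors, 0.0059 with no filter, 0.00059 with CPM above 1 in at least 5 libraries, 0.036 with a sex term, 0.038 in the 8 male libraries, 0.0017 with DESeq2 and 2.4e-05 with limma-voom, and ran from -0.023 to 0.023 with 1 library left out. With 1 library left out Bdnf ran from 0.061 to 0.26, Ntf3 from -0.59 to -0.36, Ntrk2 from 0.093 to 0.13, Ntrk3 from -0.090 to -0.0017 and Ngfr from -0.76 to -0.48. The count of called genes was 0 in the main test, 1 with total counts only, 3 with no filter, 62 with DESeq2 and 0 to 14 with 1 library left out (14 without WT replicate 5, 2 without WT replicate 2, 1 without WT replicate 1). The cause was not tested.

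The ratio differences were 0.53, 0.16 and -0.49 in the 8 male libraries for Bdnf to Ntf3, Ntrk2 to Ntrk3 and Ngfr to Ntrk2 (exact permutation p = 0.0714, 0.179 and 0.357), where fewer libraries remain. Paired by replicate number as a block they were 0.64, 0.17 and -0.63 (exact sign-flip permutation p = 0.125, 0.188 and 0.0625, the last the smallest that 5 pairs allow). With 1 library left out they ran from 0.50 to 0.71, from 0.13 to 0.20 and from -0.95 to -0.59. No pairing by number was seen in the counts: same-numbered deviations correlated at -0.316 to 0.213, and 1 of 5 WT libraries correlated best with its own number. These few correlations cannot exclude a pairing. The edgeR fit with the replicate block called 0 genes, as without it. Depth limits Ngfr most, with 25 to 84 reads per library. With the longest transcript as gene length, WT levels were 8.41 (Bdnf), 82.8 (Ntrk2), 8.81 (Ntrk3) and 95.2 CPM per kb (Sort1).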
